A study of Saccharomyces cerevisiae with 12 samples.

Results

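Chromosomes I, III, VI and IX are the shortest chromosomes of budding yeast, Saccharomyces cerevisiae. They were taken here as all windows that the deposited table places on them, from end to end, 254 of its 2441 windows. Chromosome I (230218 bp) has 47 windows, III (316620 bp) has 64, VI (270161 bp) has 55 and IX (439888 bp) has 88. They were set against the 1953 windows of the 11 larger chromosomes other than XII, which measure 562643 to 1531933 bp. Chromosome XII, which carries the ribosomal DNA, was left out of that comparison. Genomic DNA was sequenced from 4 genotypes of a diploid (MATa/MATalpha) mother enrichment strain. Each was harvested young, in log phase, and as old mothers at 24 h and at 48 h in glucose medium (YPD), giving 1 library per genotype and time. The genotypes were wild type (wt) and the deletions spt3::TRP1, rad52::TRP1 and sac3::TRP1, made in both copies of the gene. The paper lists all 4 as ade2, his3, ura3 and trp1 in both copies, and as heterozygous for lys2 and met15::ADE2. Only the deletions carry TRP1, so every mutant differs from wild type in TRP1 as well, and the effects cannot be told apart here. All 4, wild type included, carry the daughter-specific SCW11 promoter driving an estradiol-activated Cre recombinase, with loxP sites at the essential genes UBC9 and CDC20, and are leu2/leu2. Estradiol then arrests the daughters, and mothers labelled with biotin when young are recovered on streptavidin beads, so that each aged library is a purified population and not single cells. The question put to these libraries is whether chromosomal DNA other than ribosomal DNA circles changes in amount as mothers age, and whether that depends on SPT3, RAD52 or SAC3.

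A yeast centromere is short and is read by the cell as a sequence: its outer elements, CDEI and CDEIII, bind Cbf1 and the CBF3 complex, and an AT-rich stretch, CDEII, lies between them. Attachment of this point to the mitotic spindle decides whether both cells receive the chromosome, and a missed separation leaves a cell with a copy too many. Chromosome ends carry irregular repeats made by telomerase, and the genes near them are often silenced or present in several families. In a growing culture, regions that replicate early are on average present in more copies than regions that replicate late.

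The centromere sequences are shown because the windows that hold them were below log phase in every aged library on chromosome VI and on both sides of it on chromosomes I, III and IX. They are printed in the direction from CDEI to CDEIII, with those elements in capitals and CDEII in lower case, and come from RefSeq, build R64. CEN1 lies at chrI:151465-151582, CEN3 at chrIII:114385-114501, CEN6 at chrVI:148510-148627 and CEN9 at chrIX:355629-355745, all on the plus strand.
CEN1: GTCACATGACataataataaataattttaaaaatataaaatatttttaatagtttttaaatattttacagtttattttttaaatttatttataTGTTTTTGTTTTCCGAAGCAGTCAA
CEN3: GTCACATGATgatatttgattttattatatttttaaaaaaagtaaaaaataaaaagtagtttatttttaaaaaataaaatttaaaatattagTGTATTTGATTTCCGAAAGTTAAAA
CEN6: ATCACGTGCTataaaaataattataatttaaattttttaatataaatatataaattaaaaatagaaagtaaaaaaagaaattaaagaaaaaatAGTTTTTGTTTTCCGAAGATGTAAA
CEN9: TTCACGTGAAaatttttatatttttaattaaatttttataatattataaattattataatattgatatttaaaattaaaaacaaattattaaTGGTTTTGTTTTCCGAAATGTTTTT
CDEII is 96.39% A and T in CEN1, 92.68% in CEN3, 95.18% in CEN6 and 97.56% in CEN9. Read in this direction only, CDEI of all 4 holds CACNTG, as does that of 15 of the 16 centromeres (93.8%), and CDEIII of all 4 holds CCGAA, as does that of all 16 (100%). CEN1 is 78.64 kb from the right end of its chromosome, CEN9 84.14 kb, CEN6 121.5 kb and CEN3, on the left, 114.4 kb from the left end.

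The outermost bases of the reference are shown for the 3 ends that lost most signal in the aged sac3 mutant, read along the plus strand (RefSeq, build R64).
right end of III, chrIII:316581-316620: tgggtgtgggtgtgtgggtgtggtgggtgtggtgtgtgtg
right end of IX, chrIX:439849-439888: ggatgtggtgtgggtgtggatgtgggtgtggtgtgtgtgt
left end of VI, chrVI:1-40: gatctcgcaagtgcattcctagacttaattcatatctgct
The 2 right ends close in the G and T repeat of a telomere, and their annotated telomeric regions span 838 and 821 bp. The left end of VI begins in reference sequence that is not such a repeat, and its annotated telomeric region spans 5530 bp and includes a Y' element, as does the 7784 bp region at the left end of IX.

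Summed over non-overlapping windows, mitochondrial and ribosomal DNA windows included, depth ran from 5261601 to 12147987 reads per library. On the 4 chromosomes it ran from 415934 to 1109039. These ranges do not run together: wt cells at 48 h had the most reads in all, 12147987, and the fewest on the 4 chromosomes, 415934. A typical full-length window (the median) rested on 7524 to 21605 reads, so counting alone gave errors from 0.680% to 1.15%. Windows holding the deleted SAC3 gene stood at 0.842 to 0.879 of wild type in sac3 cells against 0.844 for a complete loss of the gene, and at 0.986 or more in the other mutants. The same check did not show the loss of SPT3 and RAD52, which fill less of a window. A complete loss would give 0.959 and 0.943. Their windows stood at 0.954 to 1.01 and 0.958 to 1.03 in the matching mutant, so those of RAD52 stayed above the value for a loss. In the other mutants the SPT3 windows stood at 0.777 to 0.999 and the RAD52 windows at 0.978 to 1.00. These values do not decide the labels of the spt3 and rad52 libraries. The 4 chromosomes differ from the larger ones in ways that could bear on the signal. Of their windows, 32.7% had a midpoint within 50 kb of an end, against 11.6% on the larger chromosomes, the median window was 38.8% G and C against 38.1%, and 41.3% touched a Ty element, a long terminal repeat or the ENA or CUP1 genes against 32.3%. The part of these features in the results below was not tested beyond the values given beside them.

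Chromosomes I and VI already stood above the pooled median of the larger chromosomes at log phase and stood higher still in the aged libraries. III lay near that median and IX slightly below it throughout. The level is the median signal over a chromosome's full-length windows divided by that over the full-length windows of the larger chromosomes. The signal is the deposited read number of a window scaled for library size. The level of chromosome I at log phase, 24 h and 48 h was 1.16, 1.22 and 1.21 in wt cells. In spt3 cells it was 1.12, 1.25 and 1.19. In rad52 cells it was 1.12, 1.19 and 1.15. In sac3 cells it was 1.12, 1.13 and 1.23, so that the log phase library was the lowest of its genotype in all 4. Chromosome VI was at 1.16, 1.23 and 1.23 in wt cells, and at 1.12, 1.23 and 1.20 in spt3 cells. It stood at 1.11, 1.16 and 1.11 in rad52 cells and at 1.10, 1.13 and 1.16 in sac3 cells. Here too the log phase value was the lowest of each genotype, though by little in rad52 cells at 48 h. A high log phase level was not particular to I and VI. Chromosome V, one of the larger ones, stood at 1.15, 1.14, 1.12 and 1.11 in wt, spt3, rad52 and sac3 cells at log phase. With age V was at 1.15 and 1.23 in wt cells and between 1.07 and 1.16 in the mutants. The level of chromosome III ranged from 1.01 to 1.09 at log phase and from 0.970 to 1.08 at 24 h and 48 h. That of IX ranged from 0.936 to 0.980 at log phase and from 0.907 to 0.985 in the aged libraries, and on both the aged and log phase libraries overlapped.

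Relative to the larger chromosomes, chromosomes I and VI stood above log phase in all 8 aged libraries, between 1.04 and 1.11 and between 1.02 and 1.09 of it, but no chromosome passed the test after adjustment. Each aged library was divided by the log phase library of its genotype, window by window, and centred on the larger chromosomes, so that a larger chromosome is near 1. An extra copy of a chromosome in every diploid cell would give 1.5. For chromosome I the 24 h and 48 h ratios were 1.10 and 1.10 in wt cells, 1.08 and 1.09 in spt3 cells, 1.11 and 1.06 in rad52 cells and 1.04 and 1.09 in sac3 cells. It was the highest of the 15 chromosomes other than XII in 6 aged libraries and second to chromosome XVI in both aged sac3 libraries. For chromosome VI the ratios were 1.09 and 1.06 in wt cells, 1.06 and 1.06 in spt3 cells, 1.06 and 1.02 in rad52 cells and 1.02 and 1.04 in sac3 cells. It ranked 2 in 5 libraries, 3 in 1 and 4 in 2. The larger chromosomes lay between 0.958 and 1.05 in 7 of the aged libraries, and reached 1.13 on XVI in sac3 cells at 48 h.

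Chromosome III did not move in the same direction in every genotype. It stood at 1.02 and 1.00 in wt cells and 1.05 and 1.04 in rad52 cells. In spt3 cells it was 0.908 and 0.922, the lowest of the 15 chromosomes at both times. In sac3 cells it was 0.994 at 24 h and 0.954, again the lowest, at 48 h. Chromosome IX stood at 0.981 and 0.977 in wt cells, 0.951 and 0.959 in spt3 cells, 1.00 and 1.01 in rad52 cells and 1.01 and 0.961 in sac3 cells, thus below 1 in 5 of the 8. Both chromosomes were lower in spt3 cells and in sac3 cells at 48 h, the 3 libraries with the lowest chromosome ends, than in the other 5. Without windows within 50 kb of an end, III still stood at 0.950 and 0.949 in spt3 cells and 0.971 in sac3 cells at 48 h, and IX at 0.950, 0.954 and 0.952.

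**Figure D1:**
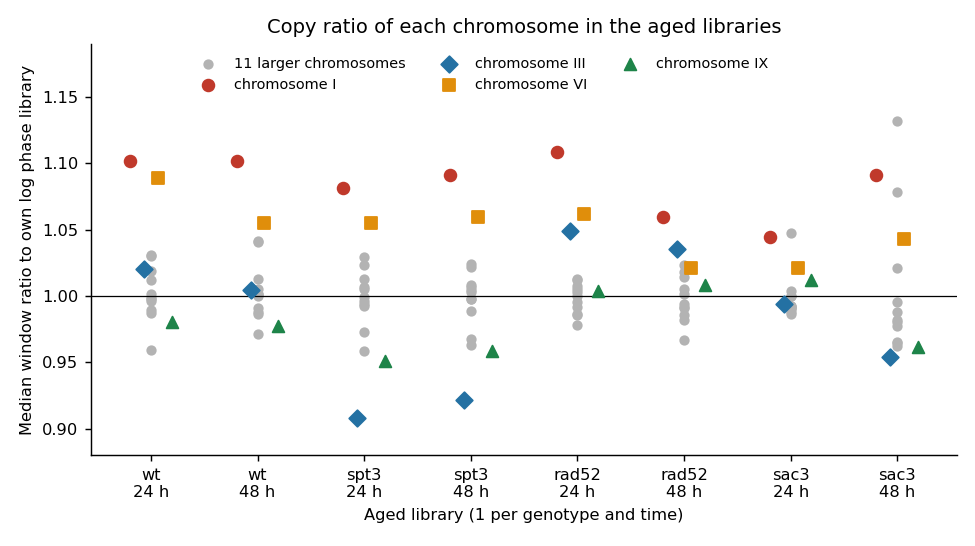
Median over windows of the aged signal divided by that genotype's log phase signal (vertical axis) in each of the 8 aged libraries (horizontal axis) for chromosomes I, III, VI and IX (coloured) and the 11 larger chromosomes (grey points). Chromosome I lies above all grey points in 6 libraries and between 1.04 and 1.11 throughout, VI lies between 1.02 and 1.09, and III falls to 0.908 in spt3 cells.

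To test the change shared by the genotypes, the time labels were exchanged inside each genotype (exact permutation, two-sided, 81 relabellings, smallest possible p 0.0123). Averaged over the 4 genotypes, chromosome I stood at 0.11 on the log2 scale (SD over genotypes 0.021, n = 4), which is 1.08-fold, with the smallest p that the permutation can give (0.0123) and an adjusted p of 0.0988 over the 16 nuclear chromosomes. Chromosome VI stood at 0.07 (SD 0.022, n = 4, exact permutation p = 0.0247, adjusted p = 0.132). Both were above 0 in 4 of 4 genotypes, as were 18.8% of the 16 chromosomes. Chromosome III stood at -0.03 (SD 0.081, n = 4, exact permutation p = 0.420, adjusted p = 0.560) and IX at -0.03 (SD 0.031, n = 4, exact permutation p = 0.272, adjusted p = 0.527). No chromosome of the 16 reached an adjusted p under 0.05 (0%), and 5 of 16 reached an unadjusted p under 0.05, among them I and VI. At the smallest possible p a chromosome passes the adjusted threshold only where several of the 16 reach it, and 2 of 16 did. The adjusted p of I is therefore limited by the number of relabellings. When windows within 50 kb of an end were left out, I stood at 0.12 and VI at 0.10, each with an adjusted exact permutation p of 0.0494. With a smallest possible p of 0.0123, that value requires further chromosomes among the 16 to pass as well. Their number is not given, so I and VI are not singled out there. Corrected for G and C content, the shared change of chromosome I was 0.05 (exact permutation p = 0.136, adjusted p = 0.241, n = 4) and that of VI 0.05 (exact permutation p = 0.0617, adjusted p = 0.198, n = 4). The corrected ratios of I were 1.00 to 1.10, and those of VI were 0.996 to 1.08, below 1 in sac3 cells at 24 h. Over all alternatives tried the shared changes of I and VI ran from 0.05 to 0.12 (adjusted p 0.0494 to 0.461) and from 0.03 to 0.10 (adjusted p 0.0494 to 0.461). Alternatives that leave out a genotype or take a single time have fewer relabellings. Their smallest possible p is larger, so a region could hardly pass there whatever its change.

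The difference from log phase was not even along chromosomes I and VI: it formed broad peaks in the arms and was smaller or absent in the windows around the centromeres, which stood at 0.893 to 1.08 of log phase on I and at 0.841 to 0.986 on VI. All ends of both chromosomes stood below 1 in spt3 cells at both times and in sac3 cells and rad52 cells at 48 h. The right arm of VI stood at 1.13 to 1.18 in wt cells, spt3 cells and sac3 cells at 48 h, against 0.977 to 1.03 in the left arm. In rad52 cells at 24 h and 48 h the right arm of VI was at 1.06 and 1.01 and the left at 1.06 and 1.04, and in sac3 cells at 24 h they were at 1.01 and 1.02. On I the left arm stood at 1.06 to 1.11 and the right arm at 0.996 to 1.16. Single windows were tested with limma on the 4 within-genotype differences (aged mean less log phase, log2 scale), with Benjamini-Hochberg adjustment over all 2423 nuclear windows. On the 4 chromosomes 49 windows were called higher and 11 lower at an adjusted p under 0.05, that is 19.3% and 4.33%, where 15.6% and 6.23% of all nuclear windows were called higher and lower. The calls were not spread evenly. On chromosome I, 24 of 47 windows (51.1%) were called higher and 0 lower, and on VI 19 of 55 (34.5%) were called higher and 4 lower. Chromosome III had 4 of 64 higher and 0 lower, and IX had 2 of 88 higher and 7 lower. Overlapping windows share reads, so these counts are not counts of separate sites. Among windows that do not overlap, 490 over all nuclear chromosomes, 9 on the 4 chromosomes were called higher and 1 lower. The share called of those 490 is not given. With all 12 libraries in the fit and genotype as a term, limma called 64 windows higher and 14 lower, against 22.7% and 12.2% of all nuclear windows. That fit treats both aged times as independent samples, although they come from the same strain. Its p-values can therefore be too small, and its counts are no separate support. Leaving out a genotype leaves 3 differences in the fit. Without wt, without spt3 or without sac3 cells limma then called 0 windows higher and 0 lower, with 54, 76 and 55 higher at an unadjusted p under 0.05. Without rad52 cells it called 54 higher and 22 lower. The share over all nuclear windows is not given for these fits, so their counts are no result about the 4 chromosomes. In the fit to all 4 genotypes, 114 of 254 windows had an unadjusted limma p under 0.05, against 836 of 1953 on the larger chromosomes.

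Among the 4 chromosomes the highest peak lay on the right arm of VI, and a second on the right arm of I. Peaks of this height were not particular to them: the highest window of the larger chromosomes stood at 0.54 on the log2 scale. Among full-length windows that do not overlap, the highest was 1.35-fold on I and 1.29-fold on VI. On the larger chromosomes it ran from 1.11-fold on VIII to 1.43-fold on X. Each window below was picked as the highest of its chromosome in these same libraries. A separation of aged from log phase values is therefore partly built in, and the values are a description. The window at 210001 to 235000 of VI, from PTR3, a regulator of amino acid sensing, to OSW7, a spore wall gene, had a signal at log phase, 24 h and 48 h of 17776, 23561 and 26467 in wt cells. It was 16943, 27246 and 26449 in spt3 cells, and 16626, 21425 and 19161 in rad52 cells. In sac3 cells it was 16377, 19046 and 27720. All 8 aged values exceeded all 4 log phase values, with ratios of 1.15 to 1.68. The shared change was 0.49 on the log2 scale (SE 0.063, 1.40-fold, limma adjusted p = 0.0281). The window at 180001 to 205000 of chromosome I, from UIP3 to the oxysterol-binding protein gene SWH1, read 17693, 23053 and 25034 in wt cells, and 17059, 25736 and 25027 in spt3 cells. It read 16350, 20516 and 18925 in rad52 cells and 16276, 18607 and 25864 in sac3 cells. Again no aged value overlapped a log phase value, and the ratios were 1.13 to 1.58 with a shared change of 0.43 (SE 0.052, 1.35-fold, limma adjusted p = 0.0281). In both windows rad52 cells had the smaller ratios at 48 h, 1.16 on each, and sac3 cells those at 24 h, 1.15 on VI and 1.13 on I.

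Runs of called windows formed 6 higher stretches on chromosomes I and VI, and neighbouring stretches can overlap where a window between them was not called. The stretches were chosen because their windows were called in these same libraries. Whether their aged and log phase levels overlap is therefore partly fixed by that choice and is no separate support. From the left end of I these were 30001 to 85000 (7 windows, GDH3 to PRP45), 90001 to 150000 (8 windows, FRT2 to VPS8) and 155001 to 220000 (9 windows, SWD1 to FLO1). The level of the second of these, which ends with a subunit gene of the CORVET tethering complex (VPS8), was 1.27 to 1.35 at log phase and 1.36 to 1.74 in the aged libraries, with no overlap. That of the third, between a gene of the COMPASS histone methylase (SWD1) and a flocculin gene, was 1.23 to 1.33 at log phase and 1.27 to 1.76 in the aged libraries, which overlap through sac3 cells at 24 h. The first stretch, from a glutamate dehydrogenase gene (GDH3) to a splicing factor gene (PRP45), was lower, at 1.03 to 1.06 and 1.11 to 1.16, without overlap. On chromosome VI the higher stretches were 65001 to 120000 (7 windows, MIL1 to CDC4), 165001 to 205000 (4 windows, UBP6 to HIS2) and 195001 to 255000 (8 windows, ROG3 to RPN12). The last of these ran from 1.27 to 1.38 at log phase and from 1.41 to 2.00 in the aged libraries, the highest level of any of these stretches. UBP6 and RPN12 encode a ubiquitin protease and a subunit of the proteasome, and CDC4 the F-box protein of a ubiquitin ligase.

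**Figure D2:**
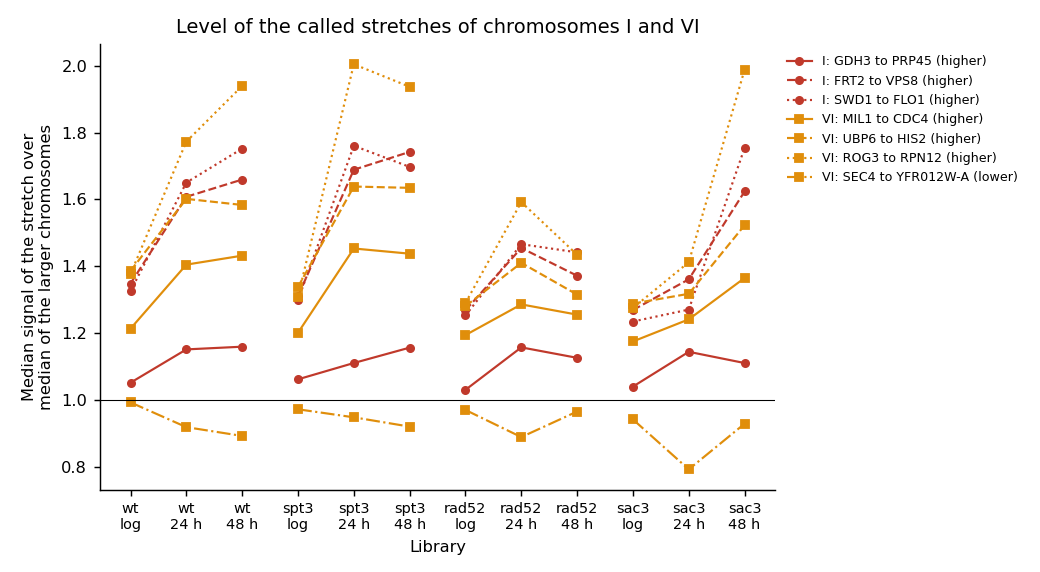
Median signal of each called stretch of chromosomes I (red) and VI (orange), divided by the median over the larger chromosomes (vertical axis), in the 12 libraries (horizontal axis, joined within a genotype). All 6 higher stretches lie above 1 at log phase already, and the stretch from ROG3 to RPN12 climbs from 1.27 to 1.38 at log phase to 1.41 to 2.00 with age.

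Chromosomes III and IX had few and shallow stretches, chosen in the same way. On III, 205001 to 235000 (YCR043C to the DNA repair gene RAD18) and 225001 to 255000 (TVS1 to PTC6) had 2 windows each called higher, and the highest window, 230001 to 255000, stood at 1.03 to 1.13 of log phase in 8 of 8 aged libraries (log2 0.12, SE 0.027, limma adjusted p = 0.0372). On IX, 35001 to 65000 (YIL163C to MCM10, a replication initiation gene) was called higher with 2 windows, and its highest window, 40001 to 65000, had ratios of 0.992 to 1.24 (log2 0.16, SE 0.041, limma adjusted p = 0.0460). The longest lower stretch was 180001 to 235000 of IX (7 windows, FYV10 to the ribosomal protein gene RPS24B), with ratios of 0.874 to 0.971, below 1 in 8 of 8. On VI, 130001 to 170000 was called lower (4 windows, SEC4, a secretory GTPase gene, to YFR012W-A), at 0.839 to 0.987 of log phase. It holds CEN6.

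**Figure D3:**
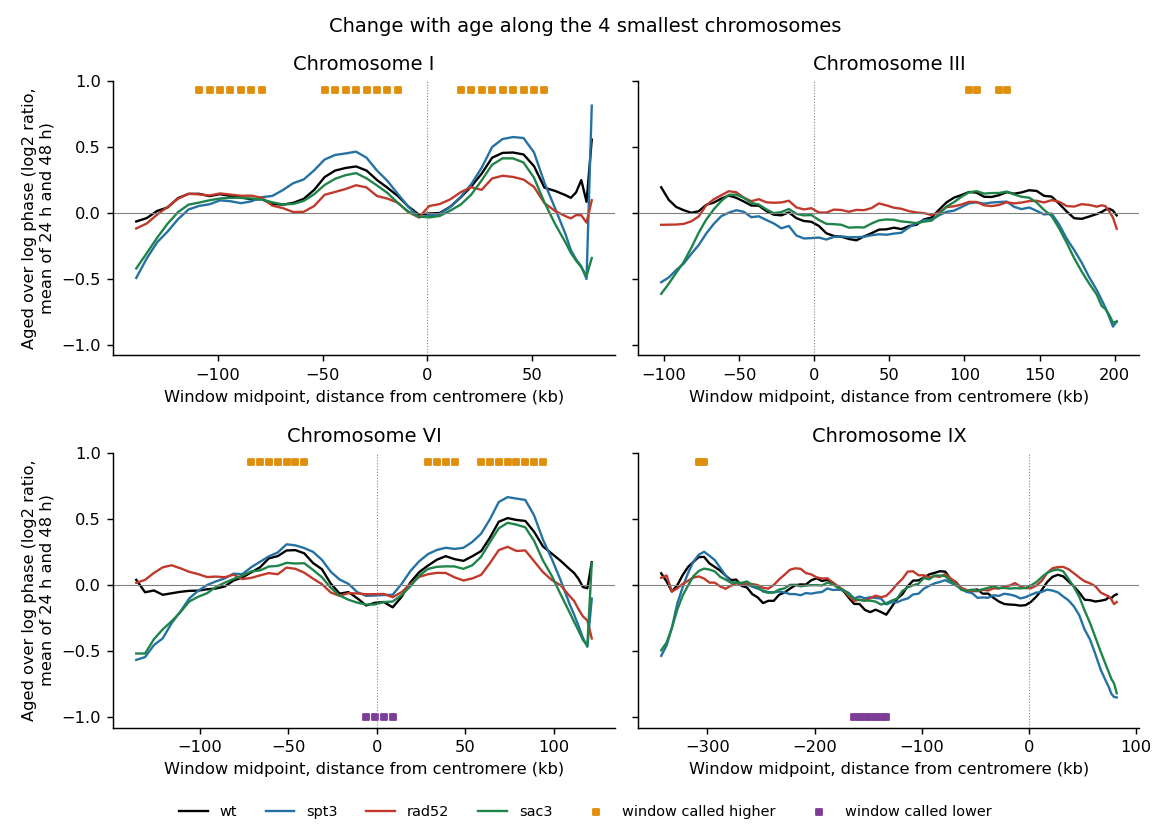
Log2 ratio of aged over log phase signal (vertical axis, mean of 24 h and 48 h) for each window by its distance from the centromere in kb (horizontal axis), for the 4 genotypes on each chromosome; squares mark windows called by limma. On I and VI the genotypes peak at similar places, the highest at 1.35-fold and 1.40-fold on average, while the outer windows fall in spt3 and sac3 cells. The last windows of I and VI are only 218 and 161 bp long, with signals of 37.1 to 82.4 and 47.3 to 69.3, so the jumps at their tips rest on few reads.

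Profiles of the genotypes were alike on chromosomes I and VI and less so on III and IX; the difference was not tested. Across windows that do not overlap, the correlation between the profiles of 2 genotypes had a median of 0.88 on chromosome I (range 0.84 to 0.97 over 9 windows) and 0.76 on VI (0.57 to 1.00 over 10 windows). On III it was 0.46 (0.03 to 0.96 over 12 windows) and on IX 0.20 (-0.07 to 0.91 over 17 windows). The windows of a chromosome share their libraries and neighbourhood, so these are descriptions. The SD of the mean profile was 0.199 on VI and 0.194 on I, the highest of the 15 chromosomes other than XII, while III ranked 10 (0.117) and IX 15 (0.0892). By their 8 aged ratios, the chromosome most like I was VI (Euclidean distance 0.138 on the log2 scale), and the most like VI was I, followed by XV (0.152). III was closest to IX (0.137) and IX to VIII (0.0574). Among the 15 chromosomes the shared change had r = -0.44 with chromosome length (n = 15), and without I and VI r = 0.54 (n = 13), so that the sign turned when I and VI were left out.

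The relation between the level of a window at log phase and its ratio with age differed between libraries and chromosomes. Each library's ratios were set against the mean log phase level of the other 3 genotypes, with which they share no library. Over the 48 full-length windows of the 4 chromosomes that do not overlap, r was 0.83 and 0.77 in wt cells at 24 h and 48 h and 0.55 and 0.65 in spt3 cells. It was 0.57 and 0.05 in rad52 cells and 0.32 and 0.47 in sac3 cells. On the 383 such windows of the larger chromosomes the values were close to these, from 0.10 in rad52 cells at 48 h to 0.81 in wt cells at 24 h. Within single chromosomes r ran from 0.22 to 0.66 on I, from -0.29 to 0.76 on III, from -0.01 to 0.86 on VI and from -0.28 to 0.80 on IX, and on III, VI and IX it was lowest, and below 0, in rad52 cells at 48 h. The spread between windows was larger than at log phase of the same genotype in all 8 aged libraries on I and VI, and in 7 of 8 on III and IX. The SD of the log2 level over windows was 0.144 to 0.186 at log phase and 0.205 to 0.484 with age on chromosome I, and 0.253 to 0.292 and 0.275 to 0.675 on VI. The exception on III and IX was rad52 cells at 48 h, with 0.132 against 0.144 at log phase on III and 0.115 against 0.126 on IX. On the larger chromosomes it was 0.217 to 0.245 and 0.239 to 0.434.

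The G and C content moved with these values. On the larger chromosomes the ratio rose by 0.02 to 0.07 on the log2 scale per percentage point of G and C, and r between them ran from 0.07 to 0.55 over 383 windows. Within chromosome I it was 0.66 to 0.80 (9 windows), within III 0.14 to 0.93 (12 windows), within VI -0.17 to 0.87 (10 windows) and within IX -0.47 to 0.66 (17 windows). Windows called higher on I had a median G and C content of 40.3% against 38.8% in those not called. On III the values were 41.8% and 38.0%, and on VI 39.5% and 38.6%. With the correction for G and C content limma called 23 windows of the 4 chromosomes higher and 4 lower. The share over all nuclear windows is not given for that setting. The window of chromosome I starting at 40001, in the first stretch, and the window of chromosome III starting at 230001 turned to -0.0128 and -0.0184 on the log2 scale. On chromosome I a window called higher held 0.875 annotated replication origins on average against 1.17 in a window not called. On VI the values were 0.789 and 1.53, but windows called lower there held 0.75. On the larger chromosomes windows called higher, not called and called lower held 0.572, 0.641 and 0.949. Uncalled windows of I and VI also lay nearer the ends, at a median of 32.5 and 50.0 kb against 60.1 and 77.7 kb for those called higher. The part of origins was not tested.

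Chromosome ends had less signal than at log phase in aged spt3 and sac3 cells and about as much in wt cells, though no end passed the test shared by the genotypes. The end was taken as the windows with a midpoint within 25 kb of it, 3 on the left and 7 or 8 on the right, where windows are cut short by the chromosome end. At the right end of IX the signal at log phase, 24 h and 48 h was 11853, 11408 and 10580 in wt cells, and 12285, 6204 and 8322 in spt3 cells. It was 10279, 10319 and 9043 in rad52 cells and 11500, 11643 and 4659 in sac3 cells. The lowest 3 of these 12 values are therefore from aged spt3 and sac3 cells. As ratios to log phase the values at this end were 0.962 and 0.905 in wt cells, 0.505 and 0.680 in spt3 cells, 1.00 and 0.884 in rad52 cells and 0.998 and 0.402 in sac3 cells. At the right end of III the ratios were 1.01 and 0.999 in wt cells and 0.543 and 0.709 in spt3 cells. There rad52 cells had 1.06 and 1.00, and sac3 cells 0.915 and 0.405. At the left end of VI the ratios were 0.980 and 0.976 in wt cells, 0.596 and 0.787 in spt3 cells, 1.07 and 0.986 in rad52 cells and 1.04 and 0.475 in sac3 cells. Thus these ends were low in spt3 cells at both times, and lower at 24 h, and in sac3 cells at 48 h. Over all 8 ends the ratios of spt3 cells ranged from 0.505 to 0.828 at 24 h and from 0.680 to 0.910 at 48 h, and those of sac3 cells from 0.903 to 1.04 and from 0.402 to 0.714. Wild type ranged from 0.962 to 1.13 and from 0.905 to 1.11, and rad52 cells from 0.977 to 1.09 and from 0.830 to 1.00. Both ends of I and the right end of VI lost less than the others in sac3 cells at 48 h, at 0.648, 0.675 and 0.714 against 0.402 to 0.559.

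The lowest single windows lay at the tips, though none passed the test. The first window of I (1 to 25000) stood at 0.580 to 0.984 of log phase, below 1 in 8 of 8 (0.829-fold on average, limma adjusted p = 0.0705). The lowest windows of III (315001 to 316620), VI (265001 to 270161) and IX (435001 to 439888) stood at 0.736-fold, 0.811-fold and 0.724-fold on average (limma adjusted p = 0.105, 0.0541 and 0.0909), and those of III and IX reached 0.321 and 0.319 in sac3 cells at 48 h.

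Median values at the ends of the larger chromosomes were similar, and the difference from them was not tested. Left ends in spt3 cells at 24 h had a median of 0.664 on the 4 chromosomes and 0.664 on the 11 larger ones, and in sac3 cells at 48 h of 0.543 and 0.545. Right ends had medians of 0.677 and 0.645, and of 0.526 and 0.533. Averaged over the genotypes none of the 8 ends was called, nor any of the 32 (0%, exact permutation, adjusted p 0.359 to 0.613 for the 8), and at an unadjusted p under 0.05 there were 0 of the 8 and 3 of the 32. All 4 genotypes were below log phase at 2 of the 8 ends, the left end of I and the right end of IX, as they were at 40.6% of the 32, and at 0 of the 8 were all 4 above it (3.12% of the 32). Ratios were nearer 1 further in: between 25 and 50 kb from an end the 4 chromosomes had a median ratio of 0.935 in spt3 cells at 24 h and 0.913 in sac3 cells at 48 h, and between 50 and 100 kb of 1.03 and 1.07. On chromosome I the windows 25 to 50 kb from an end were already above 1 in all 8 libraries, at 1.09 to 1.21.

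**Figure D4:**
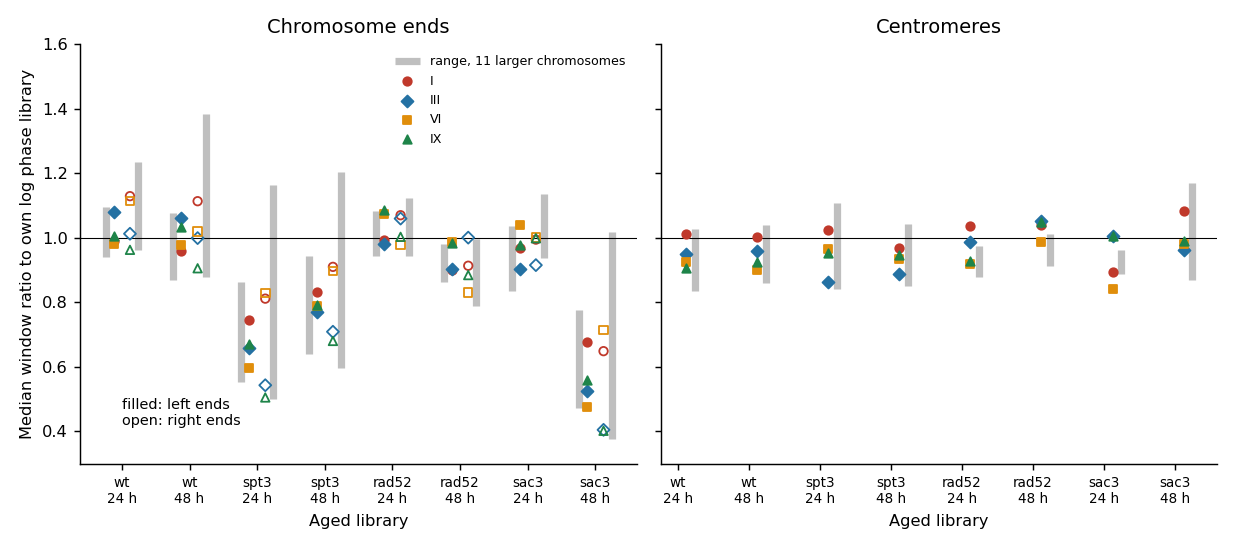
Median window ratio to the log phase library (vertical axis) at chromosome ends (left panel; filled, left ends; open, right ends) and at centromeres (right panel) in the 8 aged libraries (horizontal axis); grey bars span the 11 larger chromosomes. All 8 ends lie below 1 in spt3 cells at both times and in sac3 cells at 48 h, and CEN6 lies below 1 in every library.

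Centromere windows fell on several larger chromosomes and did not pass the exact permutation test on any of the 4. The centromere was taken as the 5 windows that hold it whole. The median signal at CEN6 was 11946 to 12354 in the 4 log phase libraries and 10241 to 12001 in the 8 aged ones, with 2 of the aged values above the lowest log phase value. As a ratio to log phase, CEN6 stood at 0.923 and 0.899 at 24 h and 48 h in wt cells, 0.965 and 0.933 in spt3 cells, 0.920 and 0.986 in rad52 cells and 0.841 and 0.979 in sac3 cells. It was below 1 in 8 of 8, at -0.10 on the log2 scale (SD 0.034, n = 4, exact permutation p = 0.0494, adjusted p = 0.0790). Of the 5 windows that hold CEN6, limma called 4 lower, the stretch 130001 to 170000 given above. Over all nuclear windows 6.23% were called lower. CEN1 stood at 1.01 and 1.00 in wt cells, 1.03 and 0.967 in spt3 cells, 1.04 and 1.04 in rad52 cells and 0.893 and 1.08 in sac3 cells, a shared change of 0.01 (adjusted exact permutation p = 0.864, n = 4). CEN3 had ratios of 0.863 to 1.05 and CEN9 of 0.906 to 1.05, with shared changes of -0.06 and -0.05 (adjusted exact permutation p = 0.198 and 0.254, n = 4). Of all 16 centromeres 6 were called lower (37.5%), none of them among these 4, of which only CEN6 reached an unadjusted p under 0.05. CEN6 was also the only one of the 4 below 0 in 4 of 4 genotypes, as were 75% of the 16.

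Of the 21 loci followed, 7 had at least 1 window called higher: CLN3, CDC24, CDC19 and FLO1 on I, CDC4 and CDC14 on VI and SUC2 on IX. All 7 lie inside the higher stretches described above. Each locus is held by 3 to 5 overlapping windows, and 15.6% of all nuclear windows were called higher. The share of all genes with such a window is not given, so the count is no result about these genes. The values given are medians over the windows that hold each gene whole and so describe a neighbourhood of 25 kb, not the gene. CDC14 on VI (YFR028C, 208413 to 210068), the phosphatase of mitotic exit, stood at 1.01 to 1.43 of log phase, above 1 in 8 of 8, with 3 of its 4 windows called higher. FLO1 on I (YAR050W, 203403 to 208016), a flocculin, stood at 1.03 to 1.28, also in 8 of 8, with 3 of 4 windows called. On the left arm of I, the G1 cyclin gene CLN3, CDC24, which activates the polarity GTPase Cdc42, and the pyruvate kinase gene CDC19 had ratios of 1.05 to 1.11, 1.04 to 1.11 and 1.06 to 1.11. The other flocculin gene of I, FLO9, nearer the left end, was at 0.801 to 1.05 and not called, and the acid phosphatase gene PHO11 at the right end at 0.594 to 1.14. On VI the actin gene ACT1 and the tubulin gene TUB2, on the left arm, stood on both sides of 1, in 4 and 6 libraries above it, and CDC4 at 0.983 or more.

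On chromosome III the mating-type cassettes differed by position. MAT (MATALPHA1), in the middle of the right arm, was above 1 in 7 of 8 libraries. The silent cassettes lie near the ends: HML (HMLALPHA1) had a signal at log phase, 24 h and 48 h of 13826, 14815 and 14475 in wt cells and 13659, 8996 and 10531 in spt3 cells. It was 13253, 12972 and 11905 in rad52 cells and 13076, 11982 and 6943 in sac3 cells. Its windows are those of the left end of III. HMR (HMRA1), near the right end, was at 0.635 to 1.06 of log phase and HML at 0.526 to 1.08, both below 1 in 6 of 8, with no window of either called. The leucine synthesis gene LEU2 stood at 0.926 to 1.06, and the glycolytic gene PGK1, in the right arm close to the centromere, below 1 in 7 of 8. On IX the invertase gene SUC2, near the left end, was above 1 in 6 of 8 with 1 of 5 windows called higher, the RNA polymerase II subunit gene RPB3 was below 1 in 7 of 8, and the adhesin gene FLO11 and the allantoinase gene DAL1 were on both sides of 1.

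Before ageing, whole chromosomes of the mutants stood at 0.969 to 1.02 of wild type, with wider differences in some regions. At log phase chromosome I of the spt3, rad52 and sac3 mutants stood at 1.00, 0.978 and 0.972 of wild type, and VI at 0.984, 0.977 and 0.974. III stood at 1.02, 0.969 and 0.972 and IX at 1.01, 0.999 and 0.989. The larger chromosomes ranged from 0.975 to 1.08 over the same comparisons. In sac3 cells I, III and VI lay below every larger chromosome, as did III in rad52 cells and VI in spt3 cells. Among the ends and centromeres, the right end of IX stood at 0.867 of wild type in rad52 cells at log phase, CEN3 at 0.932 and the left end of VI at 0.934, and the right end of III at 0.928 in spt3 cells. The aged ratios at these places are relative to those log phase values. Between 24 h and 48 h, chromosome I changed 1.00-fold in wt cells, 1.01-fold in spt3 cells, 0.949-fold in rad52 cells and 1.12-fold in sac3 cells. On its right arm sac3 cells moved from 0.996 of log phase at 24 h to 1.13 at 48 h. No replicate library exists for any of these single comparisons, so none has an error beyond counting.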

How the data were processed

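Genomic DNA libraries of 12 cultures were sequenced in a single lane. The authors trimmed reads (Trim Galore 0.6.6), aligned them to build R64, counted them in 25 kb windows placed every 5 kb and scaled the libraries to one another, and the deposited values are this normalised signal, a read number times a factor per library. The aligner is given as HISAT2 2.1.0 in the submitters' processing notes and as Bowtie 2 in the methods. The methods exclude windows with repeats, which the deposited table still holds. Window and chromosome ends match the R64 reference, from which annotation was taken. Signals were used as log2(signal + 1). Values were whole multiples of a step to within 0.1 for at least 99.8% of each library, and this step was used for depth only, which covers counting error only and not variation between cultures. Regions were tested by exact permutation over 81 relabellings with Benjamini-Hochberg adjustment, and windows with limma 3.58.1 (R 4.3.3). Python 3.11.15 with pandas 2.3.3, numpy 2.4.6, scipy 1.17.1, statsmodels 0.14.6 and matplotlib 3.10.9 did the rest. Both tests were run on simulated data with noise drawn separately for each window. Real windows overlap and share reads, so those runs do not show how well the p-values hold here. The permutation p ranks the true time labels against the other relabellings within genotypes. The limma p on within-genotype differences rests on the spread between genotypes. In the fit to all 12 libraries it rests on the spread between libraries. Each genotype has 1 culture per time point. Named regions were whole chromosomes, arms, ends, centromeres, the highest and lowest window of each chromosome, merged runs of called windows and 21 loci. The members, loci and tests were chosen with earlier results of these data known. Alternatives varied centring, summary, windows used, G and C correction (lowess, fraction 0.4), a filter on low windows, the pseudocount (100), the time point, the genotypes and the unit of the fit.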

Additional observations from a re-analysis of the deposited data

Results flagged for a closer look

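Both aged libraries of a genotype moved one way and both of another the opposite way for 2 chromosomes and 5 ends. These differences were not tested, since each genotype has 1 library per time. Chromosome III was above 1 in wild type and the rad52 mutant and below 1 in the spt3 and sac3 mutants, with the highest and lowest genotype means 0.19 apart on the log2 scale. Chromosome IX was above 1 in the rad52 mutant and below in wild type and the spt3 mutant, 0.075 apart. The left end of III was above 1 in wild type and below in all 3 mutants, 0.64 apart. The left end of IX, at 0.49 apart, and the right end of I, at 0.48 apart, were above 1 in wild type and below in the spt3 and sac3 mutants. The right end of III was above 1 in the rad52 mutant and below in the spt3 and sac3 mutants, 0.76 apart. At the right end of VI wild type was above 1 and the spt3 and rad52 mutants below, 0.31 apart. Outside the nuclear chromosomes, the 18 mitochondrial windows rose over log phase in 8 of 8 aged libraries, with median ratios from 3.62 to 27.6.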

How the results depend on the processing

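Of the 4 chromosomes, I, VI and IX kept the direction of their shared change under every alternative tried, though G and C correction took I from 0.11 to 0.05. Chromosome III turned to 0.0414 without windows that touch a Ty element, long terminal repeat, ENA or CUP1 gene, and ranged from -0.0524 to 0.00880 when a genotype was left out. Leaving out windows within 50 kb of an end took I to 0.12 and VI to 0.10, and full-length windows alone took them to 0.12 and 0.0895, all past the threshold. The cause was not tested. Windows called higher and lower on the 4 chromosomes, 49 and 11, became 26 and 0 without the repeat windows and 9 and 1 without overlap. Those tests covered 1604 and 490 windows of all nuclear chromosomes, not of the 4 alone. The counts became 23 and 4 after G and C correction, and 0 and 0 at 24 h alone and at 48 h alone by limma. At these single times 63 and 62 windows of the 4 chromosomes were higher with an unadjusted p under 0.05. The share called over all nuclear windows is not given for these alternatives, so the counts have no background beside them. When a genotype was left out the counts ranged from 0 to 54 and from 0 to 22, also without a background beside them. With full-length windows the right ends of I and VI stood at 0.0357 and 0.0368. CEN1 stood at -0.0151 at 24 h alone and at -0.00612 to 0.0172 without a genotype. After G and C correction the window of I at 40001 stood at -0.0128 and that of III at 230001 at -0.0184. On the 4 chromosomes the number of ends and of centromeres called stayed at 0 throughout. With a genotype left out, or at a single time, the exact permutation has fewer relabellings and could hardly call any region. The counts of 0 under those alternatives therefore show little. No paired analysis was possible because the libraries carry no replicate numbers, and the tests already compare times within a genotype. The levels were computed with all windows and with 3 other sets of windows, chosen after seeing the data. Of 48 levels, 33 exceeded 1 with all windows, and 34 to 36 did so with the others. The full-length windows, which gave the levels printed above, are among the others. Windows at the right tips hold few reads, which limits what their ratios show.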
